A study of Mus musculus with 9 samples.

Results

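The Rab GTPase genes of the embryonic mouse lens were described from 3 libraries of inbred wild type lenses, and 1 of them, Rab6b, also from 3 libraries each of mixed-background wild type and Sip1 conditional knockout (cKO) lenses. Members were chosen by name alone: a symbol that starts with Rab followed by a digit, without the symbols of Rab-interacting and GTPase-activating proteins. This left 32 of the 7738 genes listed in any library. Of these, Rab3il1 encodes an exchange factor for Rab proteins and not a GTPase, so it is described with the partners, and 31 Rab GTPase genes remained. All 31 were listed in the inbred libraries, among 7676 genes. Only Rab6b was also among the 190 genes with values in both mixed-background groups.

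All lenses were taken at 15.5 days post conception, and each library pooled 30 lenses. The inbred wild type carried the strain label C57Bl/6<har>. The mixed wild type was homozygous for floxed Sip1 alleles and carried no Cre, and the cKO lenses added MLR10Cre, a transgene active in lens cells, to the same alleles. Sip1 is the protein of Zeb2, a zinc finger repressor, and the study asked what its loss does to the developing lens. Both mixed-background groups therefore share the floxed alleles, while the labels give the inbred group a strain and no genotype.

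Rab proteins are small relatives of Ras that switch between an active, GTP-bound form and an inactive, GDP-bound form. Each marks particular membranes, where its active form recruits effectors that move, tether or fuse vesicles. Exchange factors switch Rabs on, GTPase-activating proteins switch them off, lipid groups added to the tail anchor them in membrane, and GDI proteins lift them off again. In the lens, elongating fibre cells add large amounts of membrane and later clear their organelles. Loss of RAB18, of either subunit of the RAB3GAP complex or of TBC1D20 causes Warburg Micro syndrome in people, which includes congenital cataract.

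The inbred libraries held 14.1 to 16.7 M mapped reads (M, mega), the cKO libraries 25.9 to 27.4 M and the mixed wild type libraries 38.7 to 44.1 M, as recovered from the steps between values. The inbred libraries had the markers of lens: 15 of 16 lens genes were listed, led by the crystallin gene Cryaa at 89016 RPKM (reads per kilobase of exon, scaled to the library's mapped reads). Of the other cell types checked in the inbred libraries, 0 of 8 retinal, 0 of 7 neuronal, 0 of 7 macrophage, 1 of 8 pigment cell, 1 of 6 surface ectoderm, 4 of 7 endothelial and 5 of 8 erythroid markers were listed. The endothelial markers summed to 14.2 RPKM and the erythroid ones, all of them globins, to 953 RPKM. The part of such cells in the Rab levels was not tested. In pooled tissue, fewer cells of a type and less RNA per cell cannot be told apart.

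Rab6b was the one Rab gene with values in all 3 groups, and Rab6 (Rab6a) is its closest relative. The 250 bases before the annotated start of each are shown because they differ in the motif that Sip1 is known to bind. They come from the RefSeq promoter table for GRCm38.p6, at chr9:103111824-103112073 for Rab6b and chr7:100607336-100607585 for Rab6, both on the plus strand. Capitals mark CACCT, the core of the Sip1 motif, or GGGCGG, the GC box of Sp1 factors, on either strand. No base belongs to both motifs in these 2 windows.
Rab6b: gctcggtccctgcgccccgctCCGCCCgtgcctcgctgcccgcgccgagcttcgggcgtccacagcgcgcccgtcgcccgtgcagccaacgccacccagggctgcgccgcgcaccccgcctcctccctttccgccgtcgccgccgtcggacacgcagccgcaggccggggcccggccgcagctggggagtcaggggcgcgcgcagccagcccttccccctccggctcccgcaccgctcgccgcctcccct
Rab6: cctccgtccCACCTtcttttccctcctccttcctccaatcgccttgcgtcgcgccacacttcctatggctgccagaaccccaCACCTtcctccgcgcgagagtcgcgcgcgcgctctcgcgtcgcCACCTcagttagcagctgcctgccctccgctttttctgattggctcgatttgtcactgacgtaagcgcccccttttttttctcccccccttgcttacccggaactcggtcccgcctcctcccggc

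The Rab6b window held 0 matches to CACCT and 1 to GGGCGG, and the Rab6 window 3 and 0. Rab6b's window was 80.8% G or C with 40 CG steps, against 62.8% and 24 for Rab6. Promoters of 28 of the 31 genes were in the table, 32 windows in all, and Rab2a, Rab18 and Rab36 were without one. CACCT occurred in 12 of the 32 windows (37.5%) and in 46.0% of all 32851 promoter windows of this length. GGGCGG occurred in 22 windows (68.8%, against 32.7% of all), CCAAT in 17 (53.1%, against 33.8%) and TATAAA in 3 (9.38%, against 12.4%), each counted on both strands. The Rab windows had a median of 20 CG steps, against 6 over all promoters. These are matches of letters in one window and not tested sites.

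The 31 Rab genes spanned a range from 2.45 to 42.1 RPKM in inbred wild type lenses. Their median was 11.9 RPKM, against 7.65 RPKM over all 7676 listed genes. Of the 31, 18 (58.1%) were at or above the median of all listed genes, and 9 (29.0%) reached 20 RPKM, against 21.4% of all listed genes. The highest, Rab5c, ranked 769 of the 7676. The list itself began at a mean of 2 RPKM, so the family as listed leaves out lower members. Of 59 mouse Rab genes looked for by name, 28 were outside the list, which places each either under that level or outside it for another reason.

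**Figure D1:**
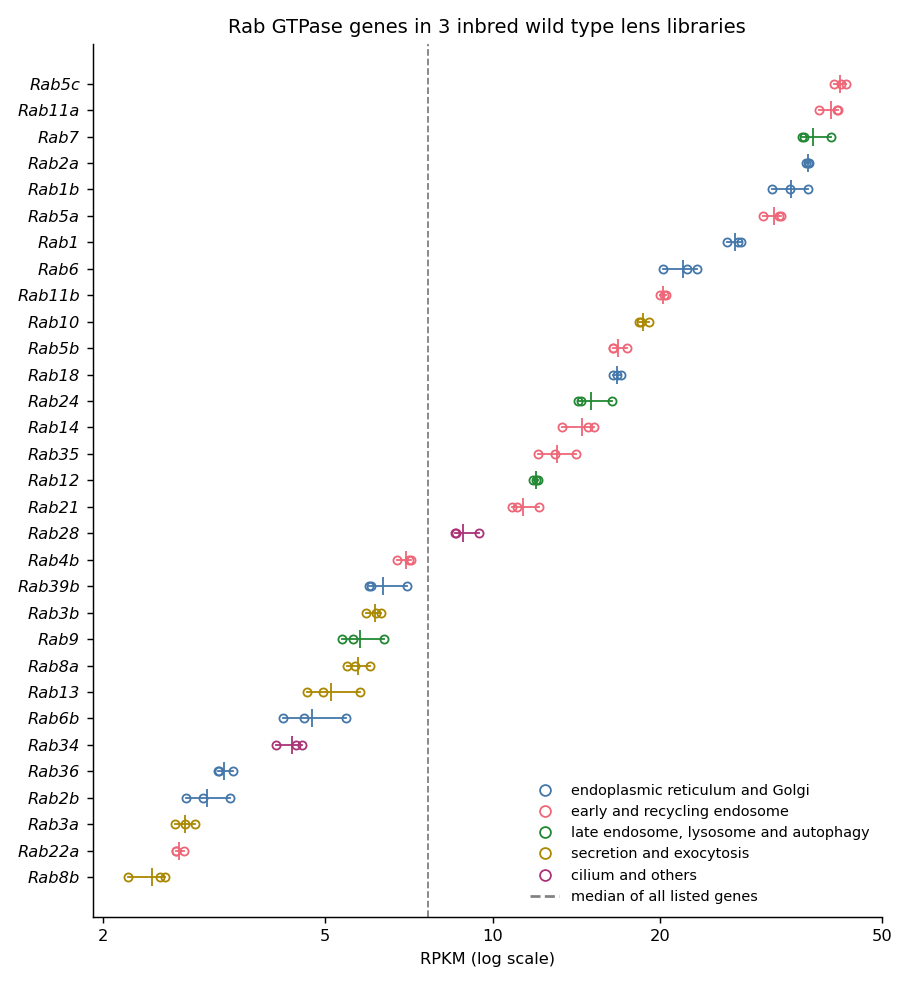
RPKM (log axis) of the 31 Rab genes in the 3 inbred wild type libraries, in order of the mean and coloured by the membranes they serve. Circles are libraries, the upright tick is the mean, and the dashed line is the median of all listed genes (7.65 RPKM); the 18 genes from Rab5c to Rab28 lie to its right.

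The early and recycling endosome group held the most Rab transcript, 41.8% of the summed RPKM of the family. It had 10 of 16 genes listed, with a median of 15.6 RPKM. Rab5c, one of 3 Rab5 proteins that drive fusion of early endosomes, was the highest Rab gene at 43.1, 42.2 and 41.0 RPKM (mean 42.1 ± 1.08, SD, n = 3). Rab11a, which returns cargo from recycling endosomes to the surface, came next at 38.5, 41.6 and 41.4 RPKM. The libraries of these 2 genes overlapped, so their order is not set. Rab5a was at 32.9, 32.6 and 30.6 RPKM and Rab5b at 16.4, 16.5 and 17.4 RPKM. In every library the 3 Rab5 genes thus stood in the order Rab5c, Rab5a, Rab5b, with no overlap.

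Rab11b, the paralog of Rab11a, was at 20.5, 19.98 and 20.3 RPKM, below Rab5a and above Rab5b in every library. By RPKM the other endosomal genes were lower than the Rab5 and Rab11 genes. By the authors' normalized values, rescaled as described further on, Rab11b stood at 6.58, below Rab5b (14.6), Rab14 (13.9), Rab35 (13.2) and Rab21. Only Rab4b (1.03) and Rab22a (2.93) of this group were below Rab11b on that scale, so the place of Rab11b is not set. Rab14, which acts between the Golgi and endosomes, had a mean of 14.4 ± 0.97 RPKM, Rab35, a regulator of fast recycling, one of 13.0 ± 1.03 RPKM, and Rab21, which handles integrin traffic, one of 11.3 ± 0.68 RPKM (SD, n = 3). At the low end, Rab4b was listed at 6.99 ± 0.23 RPKM and Rab22a at 2.70, 2.79 and 2.71 RPKM. Outside the list were Rab4a, Rab15, Rab17, Rab20, Rab25 and Rab31. Rab17 and Rab25 are known as Rabs of polarized epithelia.

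Rabs of the endoplasmic reticulum and Golgi made up 32.2% of the family's RPKM, with 9 of 15 genes listed and a median of 16.7 RPKM. The early secretory genes led them. Rab2a, which acts between the endoplasmic reticulum and the Golgi, was at 36.5, 36.8 and 37.0 RPKM, the tightest of all 31 genes with a coefficient of variation (CV, SD over mean) of 0.60%. Rab1b and Rab1 (Rab1a), both needed for transport from the endoplasmic reticulum, were at 34.2, 31.8 and 36.8 RPKM and at 26.3, 27.6 and 27.9 RPKM. Rab1b exceeded Rab1 in each library, by 1.26-fold on average (SD 0.09, n = 3).

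Rab6, the Golgi Rab that controls retrograde and secretory carriers, was at 20.2, 22.3 and 23.2 RPKM. Rab18, the cataract gene that works at the endoplasmic reticulum and lipid droplets, had 16.4, 17.0 and 16.7 RPKM and varied little (CV 1.71%). It ranked 12 in the family. The rest of the group was low: Rab39b at 5.99, 6.06 and 7.03 RPKM, Rab36 at 3.23, 3.22 and 3.42 RPKM, Rab2b at 3.02, 2.81 and 3.38 RPKM, and Rab6b, given in full further on, at a mean of 4.75 RPKM. Rab19, Rab30, Rab33a, Rab33b, Rab39 and Rab43 were outside the list.

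Among late endosomal, lysosomal and autophagy Rabs, 4 of 10 were listed, and Rab7 was the highest by RPKM. By the authors' normalized values, rescaled as described further on, it stood at 9.46, below Rab24 (15.5) and Rab12 (12.1). Rab7, which directs fusion with lysosomes, was at 36.0, 36.3 and 40.5 RPKM, rank 3 in the family. Rab24, linked to autophagy, was at 15.001 ± 1.20 RPKM (SD, n = 3). Rab12, which steers recycling receptors to lysosomes, was at 11.96, 12.04 and 11.82 RPKM, and Rab9, which returns receptors from late endosomes to the Golgi, at 6.37, 5.37 and 5.62 RPKM. Rab12 had a CV of 0.93%. Rab32 and Rab38, Rabs of pigment granules, were outside the list, as were 7 of 8 pigment cell markers. Rab7b, Rab7l1, Rab9b and Rab42 were also outside it.

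Secretory Rabs were lower as a group, with 6 of 13 listed, a median of 5.43 RPKM and 8.53% of the family's RPKM. Rab10, which carries vesicles to the basolateral surface, was the exception at 18.3, 18.5 and 19.1 RPKM. Rab3b, a Rab of regulated exocytosis, was at 5.93, 6.32 and 6.18 RPKM and Rab8a, which serves the apical surface and cilia, at 5.66, 5.48 and 6.03 RPKM. Rab13, a Rab of tight junctions, was at 5.77, 4.64 and 4.97 RPKM. The neuronal vesicle gene Rab3a was at 2.69, 2.81 and 2.92 RPKM and Rab8b, the lowest of all 31, at 2.53, 2.59 and 2.22 RPKM. Rab3c, Rab3d, Rab26, Rab27a, Rab27b, Rab37 and Rab44 were outside the list. Rab27a and Rab27b are the Rabs of lysosome-related and secretory granules, and none of the 7 genes therefore has a value here.

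Of the 5 remaining genes, Rab28 (8.87 ± 0.50 RPKM, SD, n = 3), a ciliary Rab of photoreceptors, and Rab34 (4.36 ± 0.24 RPKM), needed early in cilium formation, were listed. Rab23, an inhibitor of Hedgehog signalling, and the ubiquitin ligase adaptors Rab40b and Rab40c were not.

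Within paralog groups a single gene often carried most of the transcript. Rab2a made up 92.3% ± 0.64 of the Rab2 RPKM (SD, n = 3), Rab6 82.2% ± 1.09 of Rab6 and Rab6b together, and Rab8a 70.1% ± 2.69 of the Rab8 pair. Rab3b made up 68.6% ± 0.68 of the listed Rab3 pair and Rab11a 66.7% ± 1.22 of the Rab11 pair. The Rab1 pair was nearer to balance, with Rab1b at 55.6% ± 1.84. Of the summed Rab5 level, 90.9 ± 1.77 RPKM, Rab5c held 46.3% ± 0.31, Rab5a 35.2% ± 0.74 and Rab5b 18.5% ± 0.98. In each of these groups the higher gene was above the lower one in all 3 libraries without overlap.

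**Figure D2:**
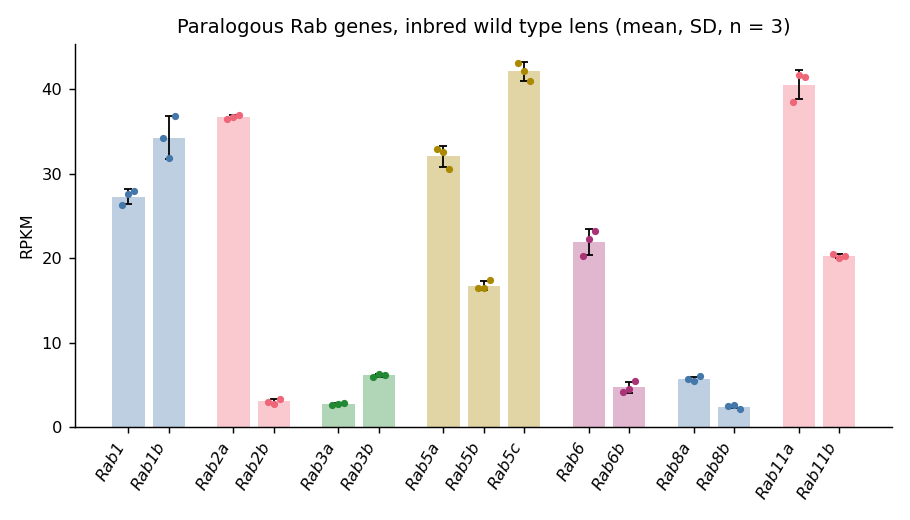
RPKM (linear axis from 0) of the listed members of 7 paralog groups in inbred wild type lenses; bars are means, error bars SD over 3 libraries and points libraries. Rab2a stands 12.03 times above Rab2b and Rab6 4.65 times above Rab6b, while Rab1b and Rab1 lie close.

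Replicates of the Rab genes agreed closely. The median CV of the 31 genes was 4.90%, against 7.21% over all listed genes, and 2.30% without inbred replicate 3. Between 92 and 2031 reads lay behind each value. The median chi-square per degree of freedom between libraries was 1.10 for Rab genes, against 2.39 for all listed genes. Pure counting error gives a mean of 1 and a median under 1, so both medians lie above that level. Of the 31 genes, 15 were under 1, and the share over all listed genes was not counted. The 5 genes with the highest CV were Rab6b (13.5%), Rab13 (11.3%), Rab2b (9.32%), Rab39b (9.12%) and Rab9 (9.05%). Of these, Rab6b also had a high chi-square per degree of freedom, 6.20, on 332, 354 and 365 reads, whereas Rab13, with 159, 125 and 116 reads, had 1.78. The remaining genes over 5 per degree of freedom were Rab7 (6.74), Rab6 (6.41), Rab14 (5.84) and Rab1b (5.17).

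Rab2a, Rab12, Rab11b, Rab18 and Rab22a were the 5 steadiest genes, with CVs of 0.60% to 1.83%. Inbred replicate 3 had the highest value for 17 of the 31 genes (54.8%), close to its share over all listed genes (52.4%). Along the order of levels, 10 of the 30 neighbouring pairs had libraries that did not overlap. The remaining 20 pairs overlapped, and whether their levels differ was not tested. The summed Rab RPKM was 472, 475 and 490 in the 3 libraries (479 ± 9.41, SD, n = 3), and the 7 highest genes held 52.3% of it.

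A second deposited measure, the authors' normalized expression value, gave a different level for a few Rab genes. Divided by RPKM and exon length, it can be compared across genes, and the Rab genes other than 5 lay between 78.1% and 121% of the median over listed genes. Rab4b (14.7%), Rab7 (25.2%), Rab11b (32.5%), Rab39b (54.3%) and Rab10 (57.0%) were far lower. Over all listed genes 12.8% were under 75%. Rab7 read 566, 593 and 667 in normalized values, against 2278, 2181 and 2013 for Rab5c, though RPKM gave them similar reads (1567, 1543 and 1496 against 1579, 1509 and 1271). On that scale Rab7 moved from rank 3 to 17 in the family, Rab11b from 9 to 18 and Rab4b from 19 to 31. Rab11a then exceeded Rab11b 5.75-fold (SD 0.49, n = 3) and not 2.002-fold (SD 0.11). The median level of the 31 genes was 9.74 RPKM with normalized values rescaled this way, and 6 rather than 9 genes reached 20.

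The Rab genes were compared for sequence shared with other genes, scored by how many of a transcript's 31-base words, in percent, recur on either strand in other genes' GENCODE M21 transcripts. Rab4b shared 82.3%, all of it with Gm21983, Rab11b 40.6%, mostly with Rab11b-ps2, Rab7 19.5%, mostly with Rab7-ps1, and Rab39b 17.2%, with Gm15063. Rab10 shared only 3.22%. Rab2b shared 75.4%, mostly with Gm43766, and Rab24 52.8% with Prelid1, yet both had normalized values near the median (109% and 103%). The levels of genes with much shared sequence are uncertain, and whether it sets the normalized values was not tested. Rab6b shared 0.24%, and its 2 measures were alike (105%).

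**Figure D3:**
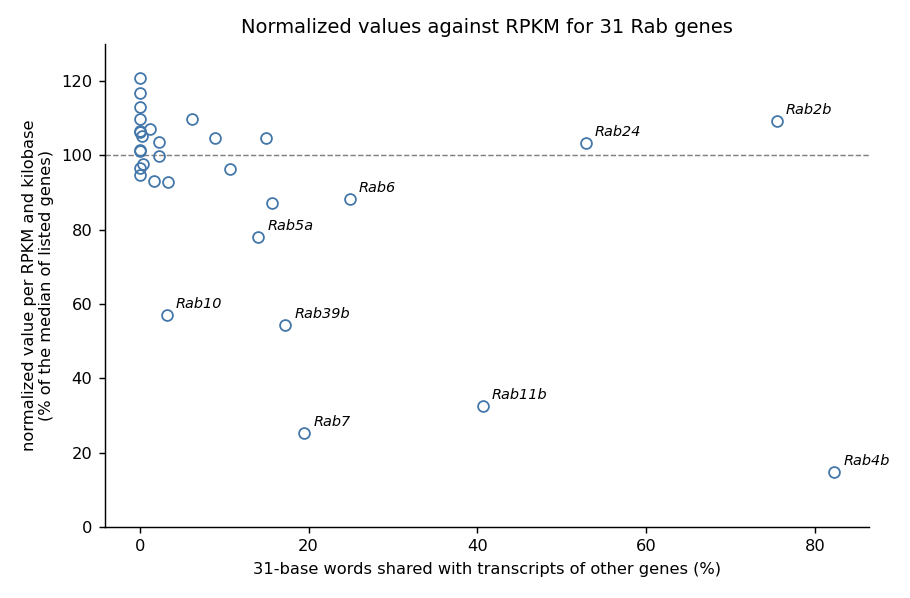
Authors' normalized value per RPKM and kilobase, as a percentage of the median of all listed genes (vertical axis), against the percentage of 31-base words shared with other genes (horizontal axis), for 31 Rab genes. Rab4b, Rab11b and Rab7 lie low, Rab10 lies low with little sharing, and Rab2b and Rab24 lie near 100% despite sharing.

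Rab6b encodes a Rab6 form abundant in neurons and was the only Rab gene measured in all 9 libraries. It read 4.203, 4.587 and 5.452 RPKM in inbred wild type, 2.736, 1.611 and 1.999 RPKM in mixed wild type and 8.239, 7.715 and 7.846 RPKM in cKO. The values of the 3 groups did not overlap, with mixed wild type lowest and cKO highest. Most genes tested did not overlap either in each of the 3 comparisons, with the shares given below. The means were 4.75 ± 0.64, 2.12 ± 0.57 and 7.93 ± 0.27 RPKM (SD, n = 3). Between 329 and 1069 reads lay behind each of them.

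In cKO against mixed wild type, Rab6b was 3.75-fold higher in mean RPKM (log2 fold change 1.71, SE 0.14, limma adjusted p = 4.05e-07). All 3 cKO libraries lay above all 3 mixed wild type libraries. The call says little by itself, since 99.5% of the 190 listed genes were called (54.2% higher and 45.3% lower in cKO) and in 100% the groups did not overlap. In all 190 the authors' mean normalized values differed at least 2.505-fold between these groups, so for Rab6b (3.08-fold) the difference is a description of how the list is made up. Among the 103 genes higher in cKO, Rab6b ranked 74 by ratio. The size depended on scaling, with a log2 fold change of 0.71 under quantile normalization and 0.83 under median centring, which lowered all differences by 0.88. Both rescalings used only the 190 listed genes, whose median log2 fold change was 1.37 as deposited. Both may thus also remove part of the difference between the groups. Sip1 loss, the Cre transgene and depth cannot be told apart here, and Zeb2 itself was not among the 190 genes, so the knockout label was not checked against it.

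Markers of other cell types among the 190 genes differed between the same groups. Of 7 neuronal markers 1 had values, Elavl4, at 2.69 to 3.18 RPKM in mixed wild type and 0.39 to 0.67 RPKM in cKO, the opposite direction to Rab6b. The surface ectoderm keratins Krt8 and Krt18, 2 of 6 markers, summed to 0.43 to 0.88 RPKM and 8.57 to 12.3 RPKM. Tek, 1 of 7 endothelial markers, was at 2.51 to 2.82 RPKM in mixed wild type and 7.84 to 8.61 RPKM in cKO. The globins Hba-a2 and Hba-x, 2 of 8 erythroid markers, summed to 398 to 538 RPKM and 84.6 to 144 RPKM. Retinal, pigment cell and macrophage markers had no values in these libraries (0 of 8, 0 of 8 and 0 of 7). The part of such cells in the Rab6b difference was not tested.

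Between the wild types, Rab6b was 2.24-fold lower in mixed than in inbred lenses (log2 fold change -1.02, SE 0.17, limma adjusted p = 0.00142), with no overlap between the 3 libraries of each. By the same test 49.2% of 128 shared genes were called (30.5% higher and 18.8% lower in mixed wild type), and 57% did not overlap. The calls split into 39 higher and 24 lower, 28 and 29 under quantile normalization and 23 and 37 under median centring. These groups also differ in strain, floxed alleles, depth and kind of file, which cannot be told apart. By ratio only 1 of the 52 genes lower in mixed wild type lay further down. All 128 genes come from the list of 190, where mean normalized values differed at least 2.505-fold between cKO and mixed wild type. The mixed wild type values thus bear on which genes are tested here, so this rank, the call and the shares are no independent evidence. In cKO against inbred wild type, Rab6b was 1.67-fold higher (0.69, SE 0.14, limma adjusted p = 0.000178). Of the 128 genes, 93.8% were called (32.8% higher and 60.9% lower), and in 93.8% the groups did not overlap. These genes also had to be listed in the inbred libraries, where the list began at a mean of 2 RPKM. Against mixed wild type, 103 genes were called higher and 86 lower in cKO among all 190, but 43 and 84 among the 128. The split thus depends on which genes are listed, on which the cKO values also bear. Tek was also higher and Hba-a2 and Hba-x lower in cKO than in inbred wild type (log2 fold changes 1.46, -1.87 and -1.32), and their part in the Rab6b value was not tested either. The Rab6b difference was 0.44 under quantile normalization and 0.35 under median centring, both run on the 128 genes only. Sip1 loss, the Cre transgene, strain, floxed alleles, depth and kind of file cannot be told apart in cKO against inbred wild type. These 3 comparisons share libraries with each other, so they are not independent.

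**Figure D4:**
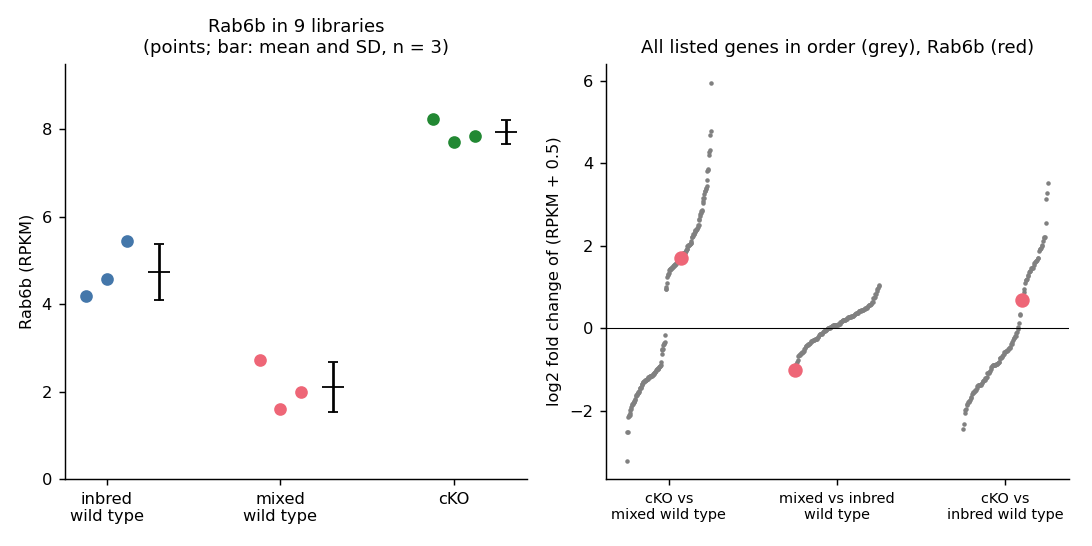
Left, Rab6b in RPKM in each of the 9 libraries (points) with the mean and SD of each group. The groups do not overlap, nor do they for most genes tested in each comparison. Right, log2 fold changes of (RPKM + 0.5) for all genes tested in each comparison in rising order (grey), with Rab6b in red at 1.71, -1.02 and 0.69.

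Within inbred lenses Rab6 exceeded Rab6b by 4.81, 4.87 and 4.26-fold. Rab6 had no value in the other groups, so it was not compared across genotypes. The genes whose log2 levels over the 9 libraries were most like those of Rab6b, among 127 others, were the spectrin gene Spna1 (Pearson r = 0.99), Cbl (0.97), Slc8a1 (0.96), Magi2 (0.96) and Adcy9 (0.95). Each was lowest in mixed wild type, as Spna1 at 1.44 ± 0.15 RPKM against 3.06 ± 0.51 in inbred and 4.85 ± 0.05 in cKO (SD, n = 3). Most opposed were Rpl39, Rpl17 and Hmgn3 (r = -0.997, -0.996 and -0.992). All points of these correlations come from the same 9 libraries in 3 groups. The genes compared all come from the list in which every gene's mean normalized value differed at least 2.505-fold between cKO and mixed wild type. In RPKM, the scale correlated here, some of them differed less, such as Rpl39 (log2 fold change -0.91). Strong correlations of either sign are partly built in by this choice of genes.

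The partners that load, switch and use Rab proteins were listed more fully than the Rabs themselves in 3 of 4 lists. Of the genes for lipid attachment and membrane recycling, 10 of 12 were listed, with a median of 17.3 RPKM. Gdi2, a GDI protein that extracts Rabs from membranes, stood at 157, 174 and 170 RPKM, above every Rab gene. Rabac1, a Rab acceptor of the Golgi, had 48.2 ± 5.13 RPKM (SD, n = 3). The transferase subunits differed, with Rabggtb at 25.4 ± 1.41 and Rabggta at 3.35 ± 0.25 RPKM. Chm and Chml, the escort proteins that present Rabs to this enzyme, were outside the list.

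Of 42 exchange factor genes, 29 were listed, with a median of 6.48 RPKM. The highest were subunits of the TRAPP complexes, which act on Rab1 and Rab11: Trappc1 (29.6 ± 2.49 RPKM, SD, n = 3), Trappc5 (26.7 ± 1.82), Trappc4 (23.0 ± 3.24) and Trappc6b (22.6 ± 1.79). Rab3il1, an exchange factor for Rab8 and Rab3, had 6.25, 6.82 and 7.61 RPKM. Of 37 GTPase-activating protein genes, 24 were listed at a median of 5.39 RPKM, and Tbc1d7 (26.7 ± 0.47), better known as a subunit of the TSC complex, and Tbc1d22a (24.4 ± 1.23) stood apart. Tbc1d15 (7.95 ± 0.95) and Tbc1d10b (7.47 ± 0.45) followed.

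All 4 genes of the Warburg Micro syndrome were listed. Besides Rab18, these were Rab3gap1 (3.95, 4.46 and 4.57 RPKM), Rab3gap2 (4.56, 4.58 and 5.15 RPKM) and Tbc1d20 (6.74, 6.68 and 6.61 RPKM). The 2 subunits of the complex that acts on Rab18 and Rab3 were thus close in level, and both were below Rab18 in every library.

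Effectors were the least complete, with 28 of 54 listed and a median of 4.68 RPKM. Rilpl1, a ciliary effector of Rab8 and Rab10, stood far above the rest at 72.7 ± 3.20 RPKM (SD, n = 3). The Golgi tethers Uso1 (24.8 ± 0.97) and Gorasp2 (19.2 ± 0.66), which act with Rab1 and Rab2, and Vps41 (14.8 ± 0.64) of the lysosomal HOPS complex followed (RPKM, SD, n = 3). Bicd2, the dynein adaptor of Rab6, was at 6.30, 6.36 and 7.52 RPKM, and Bicd1 was outside the list. None of the granule effectors Mlph, Myrip, Rph3a, Sytl1, Sytl2, Sytl4, Sytl5, Rims1 and Rims2 was listed, and Rab27a, Rab27b, Rab3c and Rab3d were not either. None of the partner genes was among the 190 genes, so they have no comparison between genotypes.

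**Figure D5:**
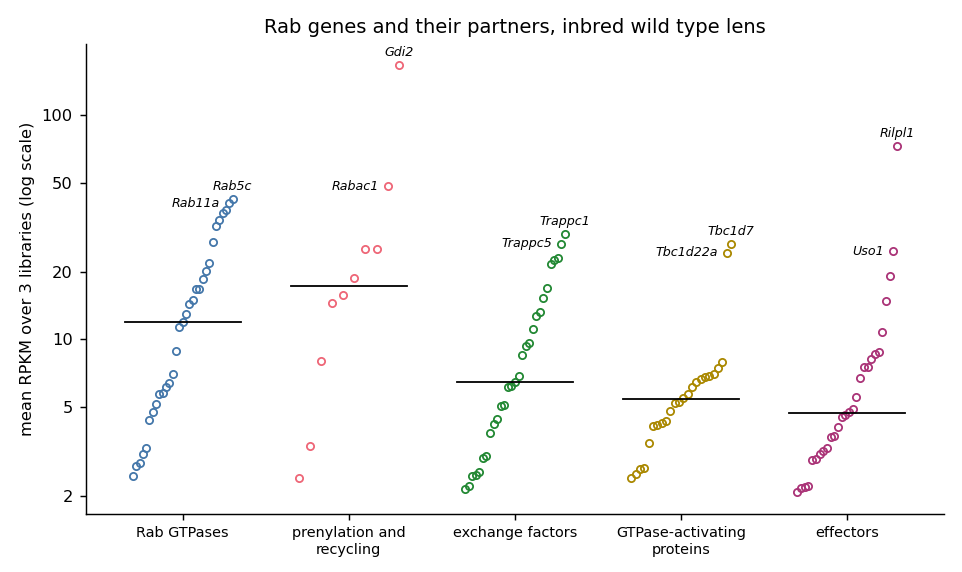
Mean RPKM over 3 inbred wild type libraries (log axis) of listed Rab genes and listed genes of 4 partner lists, each list in rising order with its median as a line. Gdi2 at 167 RPKM and Rilpl1 at 72.7 RPKM are the highest points.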

How the data were processed

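The 9 lens libraries, 3 per group, are independent biological replicates per the labels. The submitters' processing notes name CASAVA 1.8.2. Not given in the sources used here: aligner, annotation, genome build. Each deposited file holds, per gene, the authors' RPKM and their normalized value, a score of unstated unit. Exon lengths are deposited for inbred libraries. Repeated symbols (12, in 24 of 7700 inbred rows) were dropped. Low RPKM values times exon length were whole multiples of a per-library step (100% within 0.1 reads), from which depth and reads were derived. Chi-square values cover counting error only.

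limma 3.58.1 in R 4.3.3 compared groups on the scale log2(RPKM + 0.5), which understates changes of low genes, using a trended prior, only the 6 libraries concerned and genes averaging 1 RPKM or more. P-values were Benjamini-Hochberg adjusted over all genes tested, with calls at 0.05. Printed folds are ratios of mean RPKM. An exact permutation test of 3 against 3 libraries has a smallest p of 0.1. The test script was tested on simulated data.

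The members and lists were chosen with earlier results of these data known. All listed Rab genes were named. Values per library were given for Rab6b, the 12 highest and 5 lowest genes, the 5 highest and 5 lowest CVs and paralog pairs. Of each partner list, the 4 highest genes and preset ones (syndrome genes, Gdi2, transferase genes, Chm, Chml, Bicd1, Bicd2) were named, and for likeness to Rab6b 5 genes at the top and 3 at the bottom. The granule effectors outside the list were named after their absence was seen. Promoters came from RefSeq (GRCm38.p6). GENCODE M21 (GRCm38) supplied the coding transcript nearest to each exon length. Rab1 and Rab6 were matched as Rab1a and Rab6a. Python 3.11.15, numpy 2.4.6, pandas 2.3.3 and matplotlib 3.10.9 were used otherwise.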

Additional observations from a re-analysis of the deposited data

How the results depend on the processing

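Rab6b kept its direction and its side of the threshold in all 47 refits over the 3 comparisons, and the counts of called genes stayed within 1.5 times in all 47. The refits were pseudocounts of 0.1 and 1, no filter and a mean of at least 2 RPKM, quantile normalization, median centring, limma without trend, a joint fit of 9 libraries, a term for the replicate number as a block, fits that each lacked 1 library and, chosen after seeing the data and for cKO against mixed wild type only, normalized values with a pseudocount of 10 and genes of all 9 libraries. The log2 fold change of Rab6b ranged from 0.71 to 1.89 for cKO against mixed wild type, from -1.19 to -0.86 between the wild types and from 0.35 to 0.79 for cKO against inbred wild type, with highest limma adjusted p-values of 0.000981, 0.014 and 0.033. With each library left out in turn it ranged from 1.57 to 1.88, from -1.19 to -0.88 and from 0.62 to 0.79. With the replicate number as a block, the differences were 1.71, -1.02 and 0.69 (limma adjusted p = 4.29e-14, 0.00203 and 0.000759). For cKO against mixed wild type the SE hardly changed (0.135, against 0.143 without the block). The smaller p-value there rests on spread pooled over genes and is no stronger evidence. Same-numbered libraries of cKO and mixed wild type had deviations that correlated at -0.08, -0.15 and -0.16, and mixed and inbred wild type at -0.52, -0.15 and -0.24. Those of cKO and inbred wild type correlated at -0.01, 0.24 and 0.20, against -0.40 to 0.21 for differently numbered ones. The numbers thus gave no sign of pairing in the comparisons with mixed wild type. For cKO and inbred wild type this was not settled. The block lowered the calls between wild types from 63 to 47. For cKO against mixed wild type 103 genes were called higher and 86 lower, and 43 and 84 among genes of all 9 libraries.

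The median Rab level of 11.9 RPKM was 9.74 with rescaled normalized values, and 11.89 to 12.001 with a library left out. The median CV ranged from 2.30% to 5.21% with a library left out. Depth limits the lowest genes, with 92 reads for Rab3a in inbred replicate 3.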
